A study of Mus musculus with 12 samples.

Results

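The 6 genes described here belong to the GDNF pathway of the spermatogonial stem cell niche. They are the ligand gene Gdnf, the co-receptor gene Gfra1, the receptor gene Ret, and the transcription factor genes Etv5, Bcl6b and Lhx1. They were taken by gene symbol from the annotation of the array, and all 6 were found among the 22180 genes measured. Each of 12 Affymetrix arrays held RNA of whole testis, taken at 2 weeks of age from mice of the C57BL/6N background. The groups were 3 Sox3-KO testes (KO, the X-linked SoxB1 gene Sox3 disrupted by CRISPR/Cas9), 3 Sox3-Sox2KI testes (KI, made by CRISPR/Cas9, an allele that its name describes as a knock-in of Sox2), 3 wild-type littermates of KO mice (WT 4, WT 5 and WT 6) and 3 wild-type littermates of KI mice (WT 1, WT 2 and WT 3). How many founders each line had, and which parts of Sox3 the probes reach, is not known here.

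GDNF is secreted by Sertoli cells and peritubular cells and sustains the self-renewal of spermatogonial stem cells. It binds GFRA1, which is anchored in the membrane of undifferentiated spermatogonia, and the complex activates the receptor tyrosine kinase RET. Signalling through kinases of the SRC family raises Etv5, Bcl6b and Lhx1 in cultured mouse spermatogonia, and loss of GDNF, GFRA1, RET or ETV5 depletes the stem cell pool in mice.

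The sequences before the starts of Gfra1 and Etv5 are shown because the co-receptor and this factor rose together in KO testes, as given below. RefSeq promoters on the GRCm38.p6 assembly were found for 4 of the 6 genes, Gdnf, Gfra1, Etv5 and Lhx1, and the 250 bases before each start are used. The Gfra1 window is chr19:58455399-58455648 and the Etv5 window is chr16:22439571-22439820, both on the minus strand. The Gfra1 window lies inside the span that RefSeq annotates for the gene, so its start is 1 annotated start and another Gfra1 transcript may cover the window. The sequences run 5′ to 3′ toward the start, and capitals mark matches to the motifs named after them.
Gfra1: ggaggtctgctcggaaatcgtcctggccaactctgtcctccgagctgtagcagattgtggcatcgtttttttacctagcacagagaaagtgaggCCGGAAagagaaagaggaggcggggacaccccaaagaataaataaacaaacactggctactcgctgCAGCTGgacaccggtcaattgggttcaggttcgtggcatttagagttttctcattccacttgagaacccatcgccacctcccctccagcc
Etv5: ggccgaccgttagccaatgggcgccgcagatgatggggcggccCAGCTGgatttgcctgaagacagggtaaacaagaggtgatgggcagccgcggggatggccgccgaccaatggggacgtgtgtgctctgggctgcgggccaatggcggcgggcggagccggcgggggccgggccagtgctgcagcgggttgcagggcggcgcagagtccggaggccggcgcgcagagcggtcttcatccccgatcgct
The motifs, searched on both strands, were AACAAT and ACAAAG (SOX type), CCGGAA (ETS type, the family of ETV5), and CACCTG and CAGCTG (E-boxes, the kind bound by basic helix-loop-helix factors such as NEUROG3). The Gfra1 window holds CCGGAA, which begins 156 bases before the start, and CAGCTG, which begins 90 bases before it. The Etv5 window holds CAGCTG, which begins 207 bases before the start. Of 32851 promoter windows of this length 3952 hold CCGGAA and 4271 (13.0%) hold CAGCTG, so these matches describe the letters and no more. Neither SOX-type motif, found in 9.42% (AACAAT) and 16.5% (ACAAAG) of all windows, is in the windows of the 4 genes, nor is any of the 5 motifs in the second, more downstream Etv5 window, in either Gdnf window or in the Lhx1 window.

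Sox3, the targeted gene, was measured at 6.57 to 6.65 in KO, 6.75 to 7.26 in KI and 7.21 to 7.36 in WT testes on the log2 scale. KO thus differed from WT by -0.68 (SE 0.09, limma adjusted p = 0.0161), while KI 1, at 7.26, lay within the WT range. Levels below are log2 expression values, so a difference of 1 is a doubling, and the array's own normalization leaves them relative to the other genes of that array. A level of 5.33, the 95th percentile of 1105 olfactory receptor genes, served as the background limit, and the mean of each of the 6 genes lay above it. In whole testis, more cells of a type and more RNA per cell cannot be told apart.

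Of 12 measured markers of meiotic germ cells 9 fell in KO testes, and their mean level was 6.90 to 7.82 in KO, 7.99 to 8.45 in KI and 7.84 to 8.82 in WT testes. Of 12 markers of undifferentiated spermatogonia, the cells that carry GFRA1 and RET, 2 rose in KO testes, and their mean level was 6.58 to 6.59 in KO, 6.49 to 6.56 in KI and 6.37 to 6.54 in WT testes. These falls and rises are calls at a limma adjusted p under 0.05 against all WT testes. Of all genes 2.34% were called lower and 2.52% higher, and none of these markers passed against the KO littermates alone. That littermate fit called 2 of all 22180 genes, so a gene that did not pass in it, here or below, is like nearly all others. The median change of all genes was 0.04 for KO and -0.0011 for KI against WT. The part of these shifts in the results below was not tested.

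In KO testes the co-receptor, the receptor and 1 of the 3 transcription factors rose. Ret rose 1.64-fold, Gfra1 1.62-fold and Etv5 1.28-fold against the 6 WT testes, while Gdnf, Bcl6b and Lhx1 did not pass the test. The test was limma's moderated test with Benjamini-Hochberg adjustment over 22180 genes at 0.05, which called 4.86% of them (2.52% higher and 2.34% lower). All KO levels of Ret, Gfra1 and Etv5 lay above all WT levels, as did those of 6.87% of all genes.

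**Figure D1:**
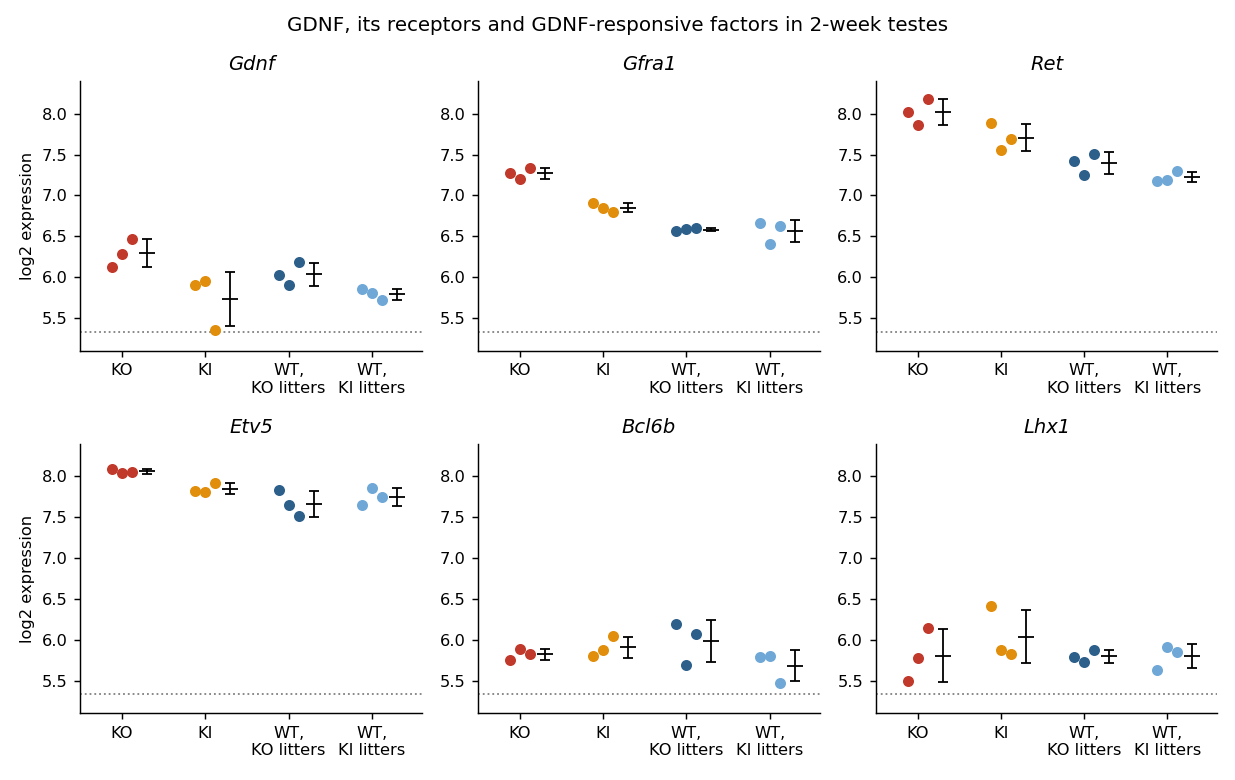
Log2 expression (vertical axis) of the 6 genes in KO, KI and WT testes, with 1 point per testis, the mean and SD of each group of 3 beside it, and the background limit of 5.33 dotted. Gfra1 and Ret are highest in KO testes, with KI between KO and WT, whereas KO and KI overlap the 6 WT testes for Bcl6b and Lhx1.

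Gfra1 encodes the GPI-anchored co-receptor that gives RET its specificity for GDNF. Its level was 7.27, 7.20 and 7.33 in KO testes 1, 2 and 3, and 6.91, 6.85 and 6.80 in KI testes 1, 2 and 3. In WT it was 6.56, 6.58 and 6.598 in the littermates of KO mice (WT 4, WT 5 and WT 6) and 6.66, 6.41 and 6.62 in those of KI mice (WT 1, WT 2 and WT 3). In this cluster the 3 genotypes did not overlap: every KO testis lay above every KI testis, and every KI testis above every WT testis. Taken 1 comparison at a time, KO lay above WT for 6.87% of all genes, KI above WT for 1.79% and KI below KO for 12.6%. KO averaged 7.27 ± 0.06 (SD, n = 3) and WT 6.57 ± 0.09 (SD, n = 6), a difference of 0.70 (SE 0.07, 95% interval 0.55 to 0.84, limma adjusted p = 0.00207). By p-value this was the second gene of 22180. The exact permutation p was 0.0238 (two-sided), the smallest that 84 splits allow. The difference was 0.69 against the KO littermates alone (limma adjusted p = 0.0314) and 0.66 to 0.73 with any 1 of the 12 arrays left out, passing in each of these fits. It was not seen in a second cluster of Gfra1, whose level of 3.74 lay under the background limit. With the used and the second cluster averaged the difference was 0.25 (adjusted p = 0.177). A further cluster, given to both Gfra1 and Gm10007, differed by 0.20 in KO testes (exact permutation p = 0.0238). There the order of the genotypes did not hold, since KI 2 (6.82) lay above KO 2 (6.71) and KO 3 (6.81).

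Ret encodes the transmembrane tyrosine kinase that carries the GDNF signal into the cell. Its level was 8.03, 7.86 and 8.18 in KO testes 1 to 3 and 7.89, 7.55 and 7.69 in KI testes 1 to 3. In WT it was 7.42, 7.24 and 7.51 in WT 4 to WT 6 and 7.18, 7.19 and 7.30 in WT 1 to WT 3. All KO testes lay above all WT testes, as for 6.87% of all genes, and so did all KI testes, as for 1.79%. KI 1 overlapped the KO range. KO averaged 8.02 ± 0.16 (SD, n = 3) and WT 7.31 ± 0.13 (SD, n = 6), a difference of 0.71 (SE 0.10, 95% interval 0.49 to 0.93, limma adjusted p = 0.0161, exact permutation p = 0.0238). The call was lost against the KO littermates alone (0.63, adjusted p = 0.12), without KO 1 (0.71, adjusted p = 0.0798) and without KO 3 (0.64, adjusted p = 0.11).

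Gdnf, the ligand gene, was 6.12, 6.28 and 6.47 in KO testes 1 to 3 and 5.91, 5.95 and 5.36 in KI testes 1 to 3. In WT it was 6.03, 5.90 and 6.18 in WT 4 to WT 6 and 5.85, 5.804 and 5.72 in WT 1 to WT 3. KO 2 and KO 3 lay above every WT testis and KO 1 within their range, while KI 3 was the lowest of the 12 and close to the background limit. The KO difference of 0.38 from all WT (SE 0.14, 95% interval 0.08 to 0.68) did not pass (limma adjusted p = 0.12, exact permutation p = 0.0476). Against the KO littermates alone it was 0.25 (adjusted p = 0.434), and the 3 WT littermates of KI mice lay below the 3 WT littermates of KO mice (difference -0.24, limma adjusted p = 0.891, exact permutation p = 0.1, the smallest of 20 splits), as did those of 7.93% of all genes. The 3 KI testes also lay below the 3 KO testes, by -0.55 (SE 0.16, limma adjusted p = 0.15).

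Etv5, an ETS factor needed for stem cell maintenance in the mouse testis and also expressed in Sertoli cells, was the factor that rose. Its level was 8.09, 8.04 and 8.06 in KO testes 1 to 3 and 7.82, 7.81 and 7.92 in KI testes 1 to 3. In WT it was 7.83, 7.65 and 7.51 in WT 4 to WT 6 and 7.65, 7.86 and 7.75 in WT 1 to WT 3. KO lay above all other testes and varied little (8.06 ± 0.03, SD, n = 3), against 7.71 ± 0.13 in WT (SD, n = 6). The difference of 0.35 (SE 0.08, 95% interval 0.18 to 0.53, limma adjusted p = 0.0353, exact permutation p = 0.0238) was close to the threshold. Of 22 alternative fits 11 kept the call. It was lost, among others, without KO 1 (adjusted p = 0.13), KO 3 (0.149), KI 3 (0.0502), WT 1 (0.0716), WT 2 (0.0656), WT 3 (0.0613) or WT 5 (0.0699), and against the KO littermates alone (0.155). The change itself stayed between 0.27 and 0.40 in the 22 fits. A second cluster of Etv5, also above the background limit, differed by 0.19 in KO testes (exact permutation p = 0.119), with overlapping ranges. In KI testes that cluster differed from WT by 0.23 (exact permutation p = 0.0714).

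Bcl6b, a BTB zinc finger repressor related to BCL6, and Lhx1, a LIM homeobox factor, gave no call in either mutant. Bcl6b was 5.76, 5.89 and 5.83 in KO testes 1 to 3, 5.799, 5.88 and 6.05 in KI testes 1 to 3, 6.19, 5.69 and 6.08 in WT 4 to WT 6, and 5.79, 5.798 and 5.47 in WT 1 to WT 3. The KO levels lay inside the WT range, with a difference of -0.01 (95% interval -0.30 to 0.28, limma adjusted p = 0.969). Lhx1 was 5.497, 5.78 and 6.15 in KO testes 1 to 3, 6.41, 5.87 and 5.83 in KI testes 1 to 3, 5.79, 5.73 and 5.88 in WT 4 to WT 6, and 5.63, 5.91 and 5.86 in WT 1 to WT 3. KO 1 lay below and KO 3 above every WT testis, and the difference was 0.01 (95% interval -0.31 to 0.33, limma adjusted p = 0.974). The sign of both differences turned with the arrays used (Bcl6b -0.09 to 0.06 and Lhx1 -0.16 to 0.17 with 1 array left out) and, for Lhx1, with median centring (-0.01).

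In KI testes Gfra1 and Ret were higher than in WT in all 3 testes, by less than in KO, and no gene of the 22180 passed the adjusted test (0% called by limma). Gfra1 averaged 6.85 ± 0.05 in KI (SD, n = 3) and 6.57 ± 0.09 in WT (SD, n = 6), a difference of 0.28 (SE 0.07, 95% interval 0.13 to 0.43, limma adjusted p = 0.945, exact permutation p = 0.0238). The cluster given to both Gfra1 and Gm10007 differed by -0.0031 in KI testes (exact permutation p = 0.976). Ret averaged 7.71 ± 0.17 in KI (SD, n = 3) and 7.31 ± 0.13 in WT (SD, n = 6), a difference of 0.40 (SE 0.10, 95% interval 0.18 to 0.62, limma adjusted p = 0.945, exact permutation p = 0.0238). Ordered by limma's p-value, Gfra1 was in place 28 and Ret in place 36 of 22180, and 1163 genes (5.24%) had an unadjusted p under 0.05. All KI testes lay above all WT testes for 1.79% of genes. Against their own littermates alone the differences were 0.29 for Gfra1 and 0.49 for Ret, again with no overlap, as for 8.37% of all genes, where 0.1 is the smallest exact permutation p that 20 splits allow and was reached by both. Bcl6b also lay above its own littermates in all 3 KI testes (difference 0.22, exact permutation p = 0.1), by a narrow margin between the lowest KI value of 5.7991 and the highest littermate value of 5.7984. With any 1 array left out Gfra1 differed by 0.24 to 0.30 and Ret by 0.31 to 0.48.

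The other 4 genes overlapped between KI and WT testes. Etv5 differed by 0.14 (SE 0.08, limma adjusted p = 0.976), with KI 3 above all WT testes and KI 1 and KI 2 among them. Gdnf differed by -0.18 (SE 0.14, limma adjusted p = 0.986), and by 0.01 without KI 3. Lhx1 differed by 0.24 (SE 0.15, limma adjusted p = 0.979), with KI 1 at 6.41 above the rest, and by 0.05 without KI 1. Bcl6b differed by 0.07 (SE 0.13, limma adjusted p = 0.989).

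**Figure D2:**
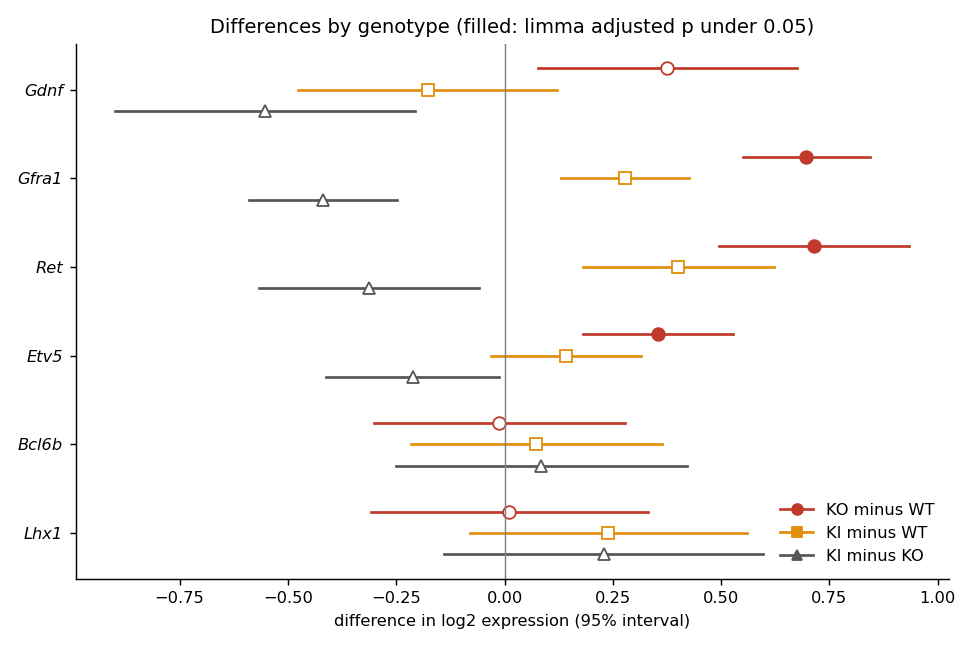
Differences in log2 expression (horizontal axis) with 95% intervals for the 6 genes (rows), for KO minus WT, KI minus WT and KI minus KO, with filled symbols where the limma adjusted p is under 0.05. The intervals of Gfra1 and Ret exclude 0 in all 3 comparisons, and the filled symbols are Gfra1, Ret and Etv5 in KO minus WT.

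Set directly against KO, KI testes had lower mean levels of the ligand, both receptors and Etv5, with overlapping ranges for Ret. No gene of 22180 passed in the reported fit (limma, with 3993 genes, 18%, at an unadjusted p under 0.05). Some alternative fits, among them the replicate block, called genes in this comparison, as given below. Gfra1 differed by -0.42 between KI and KO (SE 0.08, 95% interval -0.59 to -0.25, adjusted p = 0.133), place 16 by p-value. Ret differed by -0.31 (SE 0.12, 95% interval -0.57 to -0.06, adjusted p = 0.205) and Etv5 by -0.21 (SE 0.09, adjusted p = 0.257). With its clusters averaged Etv5 differed by -0.08, and its second cluster averaged 6.33 in KI and 6.29 in KO testes. All KI testes lay below all KO testes for Gdnf, Gfra1 and Etv5, as for 12.6% of all genes, with an exact permutation p of 0.1, the smallest possible for 3 against 3. Gfra1 passed this test without KO 2 (-0.45, adjusted p = 0.0341) and when dimmer genes than the median were left out of the fit (adjusted p = 0.0493), whereas with its clusters averaged the difference was -0.01 (adjusted p = 0.963). Bcl6b (0.09) and Lhx1 (0.23) did not pass. When the effect of each mutant was taken against its own littermates, the KO effect exceeded the KI effect by 0.40 for Gfra1 (SE 0.12, adjusted p = 0.847; -0.26 with its clusters averaged) and by 0.14 for Ret (SE 0.16, adjusted p = 0.901), and none of the 6 genes passed this test of the difference. Here too no gene of 22180 passed (limma, with 1293 genes, 5.83%, at an unadjusted p under 0.05).

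The 2 sets of wild-type littermates were compared with each other for the same genes. The WT littermates of KI mice differed from those of KO mice by -0.02 for Gfra1 (SE 0.08), -0.17 for Ret (SE 0.11), 0.09 for Etv5 (SE 0.09), -0.30 for Bcl6b (SE 0.13) and 0.0009 for Lhx1 (SE 0.18). None passed, for these 5 genes or for Gdnf (limma adjusted p at least 0.891 in the 6 genes), and no gene of 22180 did, with 1174 (5.29%) at an unadjusted p under 0.05. For Ret the WT littermates of KO mice were the higher ones, so the KO difference was smaller (0.63) and the KI difference larger (0.49) within litters than against all WT testes (0.71 and 0.40).

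The rest of the GDNF ligand and receptor family did not pass in either mutant. Of 10 measured members none rose or fell, with a median of 0.114 in KO and 0.001 in KI testes. The share of all genes called was 4.86% in KO and 0% in KI, so a list of 10 with no call is near that share. The paralog Gfra2, the co-receptor for neurturin, changed by 0.36 in KO testes (adjusted p = 0.137), Gfra3, the co-receptor for artemin, by 0.13 and Gfra4, the co-receptor for persephin, by 0.03. The ligand genes Nrtn (-0.01), Artn (0.10) and Pspn (-0.03) encode neurturin, artemin and persephin. The heparan sulphate proteoglycan gene Sdc3, which binds GDNF, was measured at 8.55 ± 0.35 in KO and 8.12 ± 0.10 in WT testes (SD, n = 3 and 6) and changed by 0.43 (limma adjusted p = 0.0622). Ncam1, an alternative signalling receptor for GDNF with GFRA1, changed by 0.24 and Sorl1, a sorting receptor for GDNF and GFRA1, by -0.27. Gfra2, Gfra3, Gfra4, Nrtn, Pspn, Ncam1, Sorl1 and Artn are named here after their values were seen.

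Of 24 measured genes of signal transduction from RET 3 rose and none fell in KO testes against all WT testes, with a median of 0.119. Of all genes 2.52% were called higher. Pik3r1, the regulatory subunit of PI3 kinase, rose by 0.39 (8.15 ± 0.10 in KO and 7.76 ± 0.11 in WT, SD, n = 3 and 6, limma adjusted p = 0.0311). Fyn, a SRC family kinase, rose by 0.25 (limma adjusted p = 0.0406) and Dok6, an adaptor that binds RET, by 0.32 (limma adjusted p = 0.0399), with the Dok6 level of 4.95 in KO and 4.63 in WT under the background limit. The 3 KO levels lay above all WT levels for each of these 3 genes, as for 6.87% of all genes. Against the KO littermates alone, where 2 of all 22180 genes passed, none of the 3 did (limma adjusted p = 0.155 for Pik3r1, 0.197 for Fyn and 0.204 for Dok6). In KI testes none of the 24 passed, with a median of 0.055, and Gab2, a docking adaptor, changed by 0.10.

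Among 12 other genes reported to respond to GDNF in spermatogonia 1 rose, Egr3, an early response zinc finger factor (6.15 ± 0.04 in KO and 5.79 ± 0.13 in WT, SD, n = 3 and 6, difference 0.36, limma adjusted p = 0.0368). Against the KO littermates alone Egr3 did not pass (limma adjusted p = 0.191). The median of these 12 genes was 0.183 in KO and 0.067 in KI testes, and none fell. In KO testes 2.52% of all genes were called higher and 2.34% lower. Egr2, a relative of Egr3, changed by 0.34 in KO (adjusted p = 0.103) and 0.33 in KI testes, and Id4, the HLH factor of stem cells, by -0.36 in KO testes (adjusted p = 0.325), values chosen after they were seen. Ccnd2, cyclin D2, changed by 0.03 in KI testes. Of the closest relatives of Etv5, Bcl6b and Lhx1 (Etv1, Etv4, Bcl6 and Lhx5) none passed. Etv1 changed by 0.40 (adjusted p = 0.0993) in KO and -0.0003 in KI testes.

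**Figure D3:**
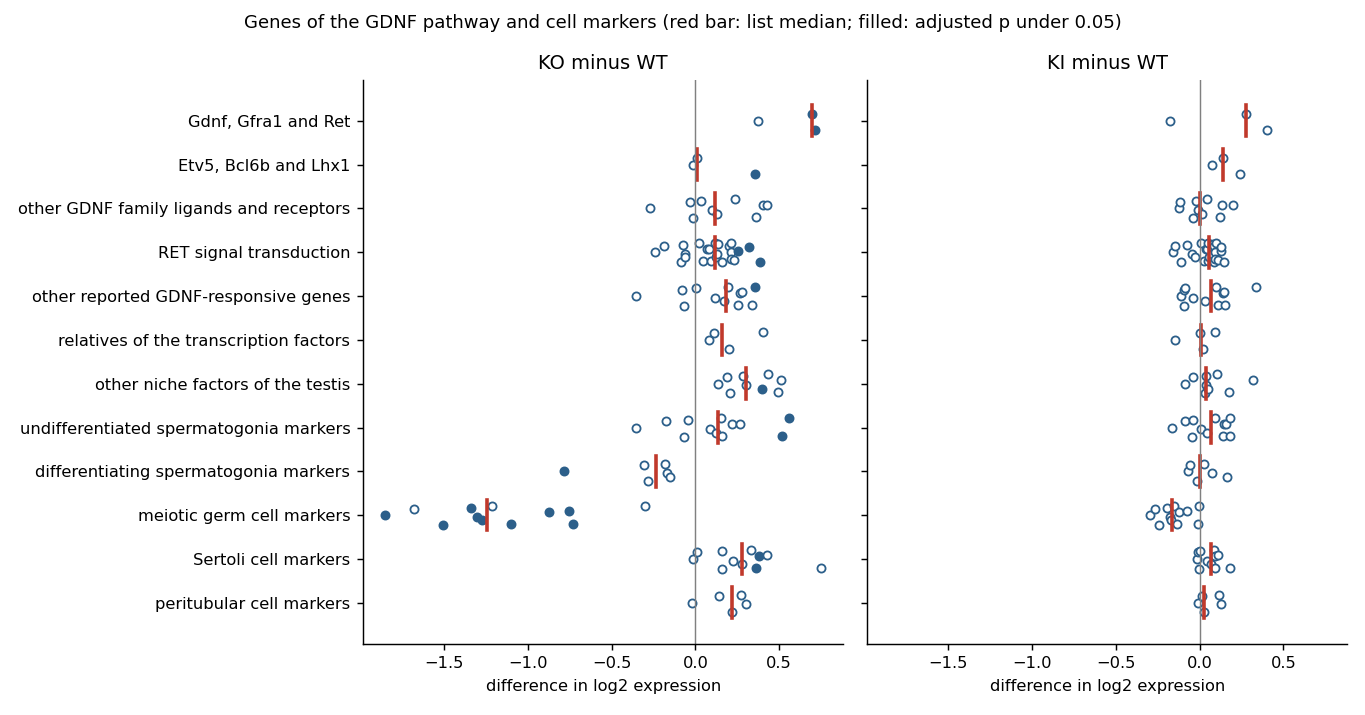
Difference in log2 expression from WT (horizontal axis) of each gene in 12 lists (rows), for KO at left and KI at right. Points are genes, filled where the limma adjusted p is under 0.05, and red bars are list medians. Gfra1 and Ret stand at the right edge of the pathway genes in KO testes, and the meiotic markers lie to the left with a median of -1.243.

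Markers of the cells that receive GDNF were measured beside the receptors. Of the 12 markers of undifferentiated spermatogonia Cdh1, E-cadherin (0.56, limma adjusted p = 0.0236), and Foxc2, a forkhead factor of quiescent stem cells (0.52, limma adjusted p = 0.032), rose in KO testes and the remaining 10 did not pass. Neither Cdh1 nor Foxc2 passed against the KO littermates alone (limma adjusted p = 0.155 and 0.133). The list median was 0.138, with 8 of the 12 changes positive and the lowest at -0.355. Id4, Lin28a, Pax7 and Eomes had lower means in KO than in WT testes. Calls of a rise covered 2.52% of all genes. Zbtb16, also called PLZF, which undifferentiated spermatogonia express beyond the GFRA1-positive ones, changed by 0.18 in KI testes (limma adjusted p = 0.976). The list median in KI testes was 0.07. Of 6 markers of differentiating spermatogonia 1 fell in KO testes, the protease gene Prss50 (-0.78, limma adjusted p = 0.0234), with a list median of -0.233. Prss50 did not pass against the KO littermates alone (limma adjusted p = 0.136). Kit, the receptor that marks these cells, changed by 0.02 in KI testes.

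Meiotic germ cell markers had a median of -1.243 in KO and -0.164 in KI testes. The 9 that fell in KO testes included Tex101 (-1.10), Hormad1 of the chromosome axis (-1.34), Spo11, which makes meiotic breaks (-1.27), and Mybl1 (-0.87), with limma adjusted p between 0.031 and 0.0317. Against the KO littermates alone they changed, in the same order, by -0.96, -1.10, -1.08 and -0.77. There none of them passed (limma adjusted p between 0.155 and 0.161). For 10 of 12 measured markers the WT littermates of KI mice were higher than those of KO mice (list median 0.385). Sycp1, of the synaptonemal complex, changed by -0.19 in KI testes. Among 11 Sertoli cell markers Inhbb, an inhibin and activin subunit (0.38), and Fshr, the FSH receptor (0.36), rose in KO testes against all WT testes. Neither passed against the KO littermates alone (limma adjusted p = 0.191 and 0.217). The remaining 9 markers did not pass. The median of all 11 was 0.278 in KO and 0.069 in KI testes, where Cldn11, a tight junction claudin, changed by 0.09 (limma adjusted p = 0.986). The mean level of the 11 was 9.74 to 9.96 in KO, 9.57 to 9.74 in KI and 9.498 to 9.70 in WT testes.

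Of the 5 peritubular cell markers none passed (median 0.22 in KO and 0.026 in KI testes), and Acta2, smooth muscle actin, changed by 0.14 in KO and 0.11 in KI testes. The share of all genes called was 4.86% in KO and 0% in KI testes. Of 4 Leydig cell markers Hsd3b1, a steroid dehydrogenase, rose in KO testes (0.63, limma adjusted p = 0.0388), but not against the KO littermates alone (limma adjusted p = 0.204). The Leydig list medians were 0.933 in KO and 0.083 in KI testes. Between the WT littermates of KI mice and those of KO mice the list median was -0.67. The mean level of this list was 9.16 to 9.44 in KO and 7.81 to 9.03 in WT testes. Cyp17a1, a steroidogenic enzyme, changed by 0.11 in KI testes (SE 0.66). Among 9 other niche factors Kitl, the KIT ligand of Sertoli cells, rose in KO testes (0.40, limma adjusted p = 0.0428) while 8 did not pass. Kitl did not pass against the KO littermates alone (limma adjusted p = 0.226). The list medians were 0.3 in KO and 0.036 in KI testes, where Kitl changed by 0.10. The endothelial (0.167), macrophage (0.138), nerve and glia (0.158) and epididymal and Wolffian duct (0.234) lists had no call in KO or KI testes, the medians given being those of KO. In the same order the members Cdh5 (0.31), C1qb (0.18), Sox10 (0.07) and Gata3 (-0.02) did not pass in KO testes, and they changed by 0.21, 0.02, 0.21 and -0.12 in KI testes. The level of the duct list, whose cells in the embryo also use Ret and Etv5, was 5.13 to 5.41 in KO, 4.89 to 5.31 in KI and 4.95 to 5.29 in WT testes, near the background limit.

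**Figure D4:**
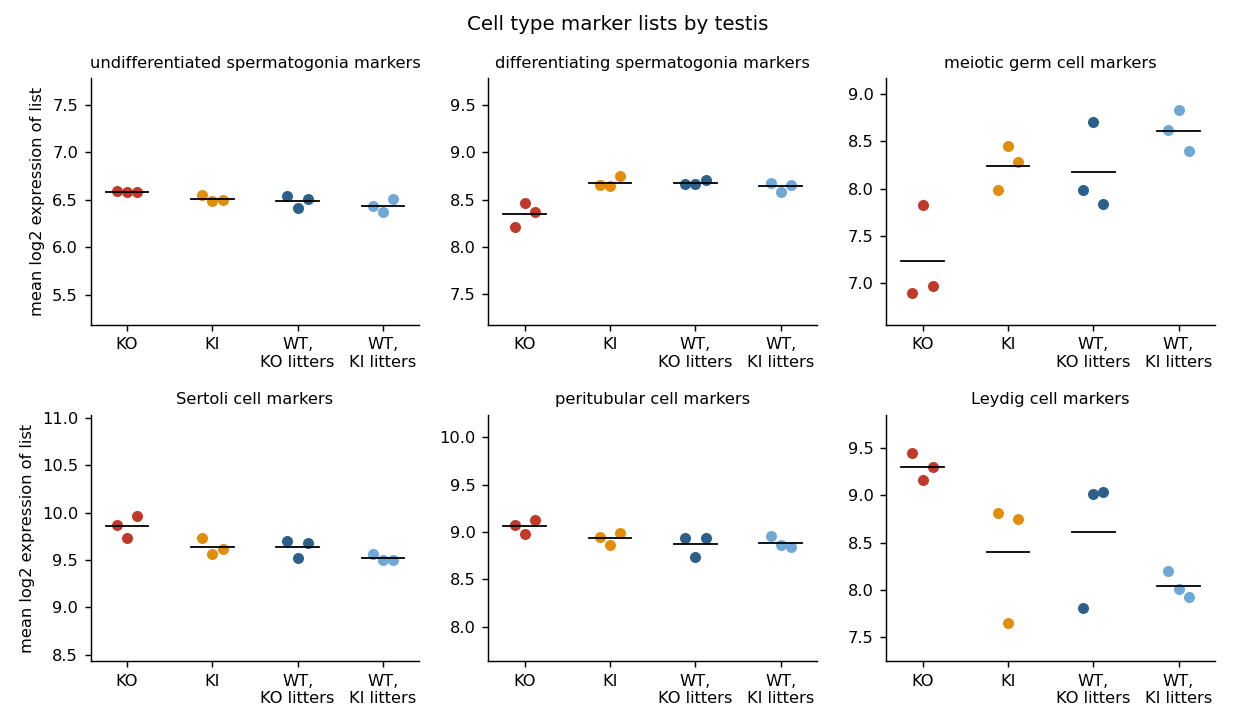
Mean log2 expression (vertical axis, each panel spanning the same range) of 6 lists of cell type markers in KO, KI and WT testes, with 1 point per testis and a line at the mean of each group of 3. The meiotic list is lowest in KO 1 and KO 3. The list of undifferentiated spermatogonia spans 6.58 to 6.59 in KO, 6.49 to 6.56 in KI and 6.37 to 6.54 in WT testes.

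Across the 12 testes, the genes whose levels ran most like those of Gfra1 among 14546 others above the background limit were Cx3cl1, the chemokine fractalkine (Pearson r = 0.949), AW549877 (r = 0.949) and Sptb, a spectrin (r = 0.947), and Ret was in place 15 (r = 0.921). For Ret they were Inpp5f, a phosphoinositide phosphatase (r = 0.981), Lzts2 (r = 0.98) and Map3k21 (r = 0.97), and for Etv5 the adhesion receptor Adgrl3 (r = 0.952), Hbp1 (r = 0.917) and Tmem45a (r = 0.907). These values share the contrast of KO with the other testes. With the mean of each group of 3 taken away, r was 0.427 between Gfra1 and Ret and -0.57 between Gfra1 and Etv5, against 0.921 and 0.762 without that step. After that step r was 0.897 between Gfra1 and Cx3cl1, 0.524 with AW549877 and 0.515 with Sptb, and it was 0.937 to 0.952 between Ret and its 3 genes and 0.735 to 0.889 between Etv5 and its 3 genes. Mmab, Mtch1 and Yipf1 (r = 0.945, 0.93 and 0.92) ran most like Gdnf, Fam124a, Sec22c and Bclaf3 (0.896, 0.842 and 0.836) most like Bcl6b, and Entpd5, Gpatch1 and Igf2r (0.935, 0.931 and 0.89) most like Lhx1. These are descriptions over 12 arrays, in which the best of many genes is high by construction.

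The number of genes called in KO testes, against which these 3 calls are read, rested on single arrays. Of 22180 genes 1078 passed with all arrays. Without 1 array the count lay between 2 and 2323, and it was 3 without KO 1, 2 without KO 3, 18 without WT 3, 35 without WT 2, 36 without WT 1, 32 without WT 5, 463 without KI 3, 608 without KI 2, 1748 without WT 6 and 2323 without KO 2. Of the 6 genes, 1 was called without KO 1 or without KO 3, and that gene was Gfra1.

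**Figure D5:**
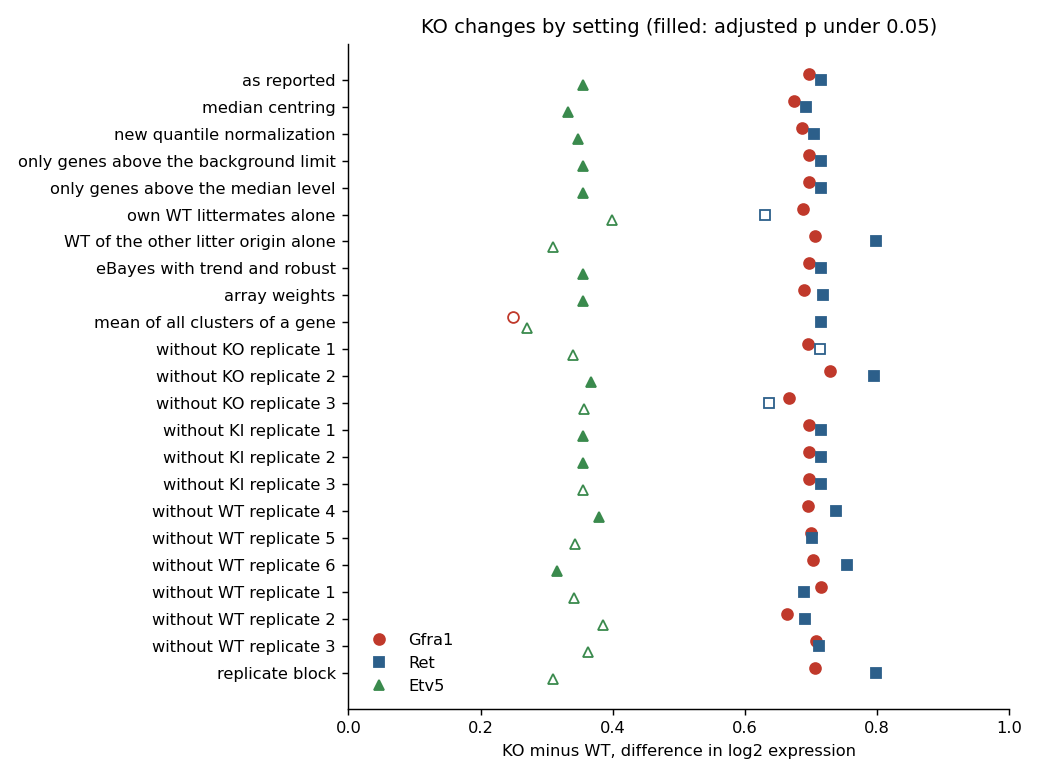
KO minus WT difference in log2 expression (horizontal axis) of Gfra1, Ret and Etv5 in the reported fit and in 22 alternatives (rows), with filled symbols where the limma adjusted p is under 0.05. Gfra1 is filled in 21 of 22 alternatives, Ret in 19 and Etv5 in 11.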

How the data were processed

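The deposited values were log2 expression values for 41345 transcript clusters on 12 arrays (0.91 to 13.93, array medians 5.74 to 5.82). Per the submitters' processing notes the tools included Partek 6.6, Affymetrix Expression Console and RMA, whose order is unstated. The annotation release is not given in the sources used here. Clusters were named from the platform annotation (23521 with 1 symbol, 1814 with several, 16010 with none), and a gene with several single-symbol clusters took the one of highest mean. Of the 22180 genes 21994 matched RefSeq by Entrez number. All arrays entered 1 limma 3.58.1 fit (R 4.3.3, lmFit and eBayes, two-sided, no filter) with KO, KI and pooled WT, and litter contrasts came from a fit of 4 groups. Exact permutation tests used scipy 1.17.1 in Python 3.11.15, and figures matplotlib 3.10.9. Arrays give no counts, so their number limits the precision.

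The 6 genes and the lists were chosen with earlier results of these data known. All 6 genes are named. Of each other list the rule took up to 4 passing genes of smallest p in each mutant, or else the gene of highest array signal. It also took the 3 genes of highest Pearson correlation with each member. Of 147 list genes 131 had a single-symbol cluster, and the other 16 were not used here. On simulated KO against WT data the fit called 51.6% of 1.41-fold and 92.4% of 2-fold changes, and 4.87% of its calls were false. The simulated noise was independent between genes, so this does not cover the dependence of calls on single arrays. Alternatives were median centring, quantile normalization, filters on level, the choice of control litter, eBayes with trend, array weights, the mean of a gene's clusters, a replicate block and each array left out.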

Additional observations from a re-analysis of the deposited data

Results flagged for a closer look

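For Bcl6b the 3 KO testes lay below the mean of their own littermates and the 3 KI testes above the mean of theirs. The KO effect minus the KI effect was -0.39 on the log2 scale (SE 0.19, 95% interval -0.80 to 0.03), and the difference did not pass (limma adjusted p = 0.848). The WT littermates of KO mice averaged 5.99 ± 0.26 (SD, n = 3) and those of KI mice 5.69 ± 0.19 (SD, n = 3), against 5.82 ± 0.06 in KO and 5.91 ± 0.13 in KI testes (SD, n = 3 each).

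A cluster that the annotation gives to both Gfra1 and Gm10007, and which the comparisons left out, had a signal above all WT testes in all 3 KO testes. It averaged 6.79 ± 0.07 in KO (SD, n = 3) and 6.59 ± 0.09 in WT (SD, n = 6), a difference of 0.20 (exact permutation p = 0.0238), with the lowest KO value at 6.7139 and the highest WT value at 6.7088. In KI testes it averaged 6.58 ± 0.21 (SD, n = 3), a difference of -0.0031 from WT. The shares of the 2 genes in this signal were not tested.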

How the results depend on the processing

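Of 597 values of the 6 genes under the alternatives 556 kept their direction and their side of the threshold, 15 lost the call, 2 gained one and 24 turned sign; the cause was not tested. In KO against WT Gfra1 lost its call with the mean of all clusters (0.25), in which the dim second cluster takes part. Ret lost it against own littermates (0.63), and Etv5 against own littermates (0.40), WT of the other litter origin (0.31), with the mean of clusters (0.27) and with the replicate block (0.31). Without 1 array Ret ranged from 0.64 to 0.79 and Etv5 from 0.32 to 0.39. The genes called in KO numbered 2201 above the background limit, 2459 above the median level, 2 against own littermates and 2048 with trend and robust eBayes, and 2 to 2323 without 1 array. Of the 6 genes 1 was called with own littermates, 1 with the mean of clusters, and 1 to 3 without 1 array. No member and no gene was called in KI against WT under any of 22 alternatives.

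In KI against KO 2 genes were called above the background limit, 57 above the median level (Gfra1 among them, 1 of the 6), 5 with trend and robust eBayes and 0 to 721 without 1 array, with 0 to 1 of the 6 genes. Between WT litters the count was 1 with trend and robust eBayes and 0 to 50 without 1 array.

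The signs that turned were these. Lhx1 in KO was -0.011 with median centring, -0.0045 with quantile normalization, -0.056 with array weights and -0.16 to 0.17 without 1 array. Bcl6b in KO was 0.14 against WT of the other litter origin, 0.014 with array weights, 0.14 with the replicate block and -0.085 to 0.060 without 1 array. Bcl6b in KI was -0.077 against WT of the other litter origin and -0.0001 to 0.14 without 1 array, and Gdnf in KI -0.28 to 0.012 without 1 array. Between WT litters Lhx1 was -0.0024 with median centring, -0.028 with array weights and -0.054 to 0.085 without 1 array, Etv5 -0.052 with the mean of clusters, and Gfra1 -0.066 to 0.060 without 1 array. The KO effect minus the KI effect of Gfra1, 0.40 as reported, was -0.26 with the mean of clusters.

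The replicate numbers were not taken to pair the testes, since the labels do not say that they mark a shared litter or batch. Deviations from group means correlated over 0.1 in 3 of 9 pairs with the same number (range -0.035 to 0.16). Among 18 pairs with different numbers 0 did (range -0.19 to 0.084). With so few pairs these values cannot decide whether the numbers mark a shared litter or batch. With the replicate block the KO count was within 1.5 times the reported one and 247 genes were called in KI against KO. The litter contrasts allow no such block, since WT 4 to WT 6 have numbers of their own. Few arrays, relative values and signals of Gdnf, Bcl6b and Lhx1 close to the background limit restrict what differences could be seen.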

Other observations

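Clusters of the same genes that entered no comparison gave these values. A second cluster of Etv5 averaged 6.29 ± 0.02 in KO, 6.33 ± 0.08 in KI (SD, n = 3 each) and 6.10 ± 0.18 in WT testes (SD, n = 6), a difference of 0.19 for KO (exact permutation p = 0.119) and 0.23 for KI (exact permutation p = 0.0714). The second cluster of Gfra1, under the background limit, averaged 3.54 ± 0.37 in KO, 3.93 ± 0.16 in KI (SD, n = 3 each) and 3.74 ± 0.31 in WT testes (SD, n = 6). A cluster given to both Lhx1os and Lhx1 averaged 4.23 ± 0.13 in KO, 4.11 ± 0.14 in KI (SD, n = 3 each) and 4.04 ± 0.15 in WT testes (SD, n = 6), also under the background limit.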
